A study of Mus musculus with 4 samples.

Results

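Neuron-enriched microRNAs (miRNAs) other than miR-9 and miR-124 were followed in whole mouse retina that lacked or retained Ptf1a. The set is a fixed list of 9 mature arms from 7 miRNA groups: mmu-miR-128-3p, mmu-miR-129-5p, mmu-miR-132-3p, mmu-miR-132-5p, mmu-miR-212-3p, mmu-miR-137-3p, mmu-miR-138-5p, mmu-miR-153-3p and mmu-miR-218-5p, written below without the species prefix. All 9 were among the 1326 mature miRNAs listed in the deposited tables, and 8 of the 9 had the 10 counts in 2 libraries that were required for testing, as did 584 miRNAs in all. The set is defined by miRNA names, and was drawn up with earlier results of these data known. The study measured small RNA of 18 to 30 nt from retinas at E18.5, late in gestation, in 2 genotypes, Ptf1a-/- (2 libraries) and Ptf1a+/- (2 libraries). The Ptf1a+/- embryos thus carried 1 mutated copy themselves, and no wild type retina was analysed here. The gene product, a bHLH transcription factor, is needed by retinal progenitors to form amacrine and horizontal cells, and the series concerns amacrine cell generation. The labels name neither the allele nor the number of embryos behind a library, so a p-value here reflects library-to-library spread, part or all of which may be technical.

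miRNAs are cut from hairpin precursors as a duplex of a 5p and a 3p arm. One arm is usually retained by Argonaute and pairs with target mRNAs mainly through its seed, bases 2 to 8. Many of these miRNAs are reported to rise as neurons mature and to act at the synapse or the dendrite. Neuron maturation was not followed here, since all libraries are from E18.5. miR-132 and miR-212 are transcribed together, downstream of the activity-responsive factor CREB, and promote dendrite growth. miR-128 restrains neuronal excitability, and miR-129-5p takes part in the down-scaling of synapses after prolonged activity. miR-138 limits the size of dendritic spines in rat hippocampal neurons, miR-153 acts on genes of vesicle release, miR-137 acts on synaptic genes, and miR-218 is a major miRNA of motor neurons.

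The mature sequences (RefSeq, GRCm38.p6; all 9 matched by name) are shown because the seed decides which members could share targets. They run 5′ to 3′ with the seed in capitals.
miR-132-3p: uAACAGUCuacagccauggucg
miR-212-3p: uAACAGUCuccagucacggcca
miR-132-5p: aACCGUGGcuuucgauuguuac
miR-128-3p: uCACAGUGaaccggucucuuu
miR-218-5p: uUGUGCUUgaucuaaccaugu
miR-129-5p: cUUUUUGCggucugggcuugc
miR-153-3p: uUGCAUAGucacaaaagugauc
miR-138-5p: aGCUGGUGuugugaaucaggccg
miR-137-3p: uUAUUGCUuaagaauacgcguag
Only miR-132-3p and miR-212-3p shared a seed within the set. No miRNA outside the set that was tested carried the seed of a member. The listed miR-7002-3p has the seed of miR-218-5p, but 0 and 0 reads of it were counted in Ptf1a-/- and 0 and 1 in Ptf1a+/-.

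The arms come from 12 precursors on GRCm38.p6, and their surroundings were read from GENCODE M21. miR-128-3p arises from Mir128-1 (chr1:128202361-128202430, plus strand, in an intron of R3hdm1) and from Mir128-2 (chr9:112118636-112118711, minus strand, in an intron of Arpp21). miR-218-5p arises from Mir218-1 (chr5:48223942-48224051, plus strand, in an intron of Slit2) and Mir218-2 (chr11:35616816-35616925, plus strand, in an intron of Slit3). Slit2 and Slit3 encode secreted axon guidance proteins. Mir153 (chr12:117250817-117250885, plus strand) lies in an intron of Ptprn2, which encodes a protein of dense-core vesicles. Mir212 (chr11:75173388-75173478) and Mir132 (chr11:75173682-75173747) lie on the plus strand 203 bases apart, in an intron of the noncoding gene 1700016P03Rik. Mir129-1 (chr6:29022619-29022691, plus strand), Mir137 (chr3:118433857-118433929, plus strand), Mir138-1 (chr9:122682876-122682974, plus strand) and Mir138-2 (chr8:94324311-94324381, plus strand) overlap exons of noncoding or pseudogene transcripts, and Mir129-2 (chr2:94241364-94241453, minus strand) lies in an intron of Mir670hg. Reads of miR-128-3p, miR-129-5p, miR-138-5p or miR-218-5p cannot be assigned to one of their precursors, because the mature sequence is the same.

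Library totals lay between 3647145 and 4385834 counts, and a miRNA at 0 could still have a level of 0.638 to 0.924 CPM, depending on the library (3 counts, counting error only). Levels are CPM, counts relative to a common library total, after TMM scaling, a factor per library that sets the bulk of miRNAs equal between libraries. The 2 genotypes were not equally tight. Over miRNAs at 100 CPM or more, the Ptf1a-/- pair differed by a median of 0.25 on the log2 scale and the Ptf1a+/- pair by 0.03. The Ptf1a+/- pair still differed beyond read sampling (chi-square per degree of freedom 1.85 over 579 miRNAs, p = 5.13e-32; 120 in the Ptf1a-/- pair), and both were kept as replicates. Ptf1a-/- replicate 2 stood apart, with a TMM factor of 0.829 against 1.06 to 1.07 in the other libraries. The 10 most abundant miRNAs took 72.1% of its counts, against 67.9% in Ptf1a-/- replicate 1 and 67.0 and 66.9% in the Ptf1a+/- libraries. The tissue label was checked on retinal neuron and photoreceptor miRNAs, all of which were present: miR-9-5p and miR-124-3p summed to 219624 and 285641 CPM in Ptf1a-/- and 194606 and 194759 CPM in Ptf1a+/-, and miR-183-5p, miR-96-5p and miR-182-5p to 143910 and 232319 CPM against 145729 and 142342 CPM. Nearly all of the first sum was miR-9-5p. miR-124-3p alone stood at 1020 and 833 CPM in Ptf1a-/- and 1021 and 1034 CPM in Ptf1a+/-. No Ptf1a mRNA is measured in small RNA libraries, so the genotype labels were not checked against it.

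The 9 arms together made up 1.07 and 0.868% of the listed counts in Ptf1a-/- and 1.33 and 1.34% in Ptf1a+/-. On the TMM scale they summed to 10077 and 10464 CPM in Ptf1a-/- and to 12507 and 12523 CPM in Ptf1a+/-, so both Ptf1a-/- libraries lay below both Ptf1a+/- libraries. miR-128-3p supplied most of the sum, with 59.4 and 67.8% of it in Ptf1a-/- and 59.0 and 58.5% in Ptf1a+/-. miR-218-5p supplied 28.3 and 17.6% in Ptf1a-/- and 27.5 and 27.5% in Ptf1a+/-. Since this is whole retina, fewer cells of a type and less miRNA per cell cannot be told apart.

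**Figure D1:**
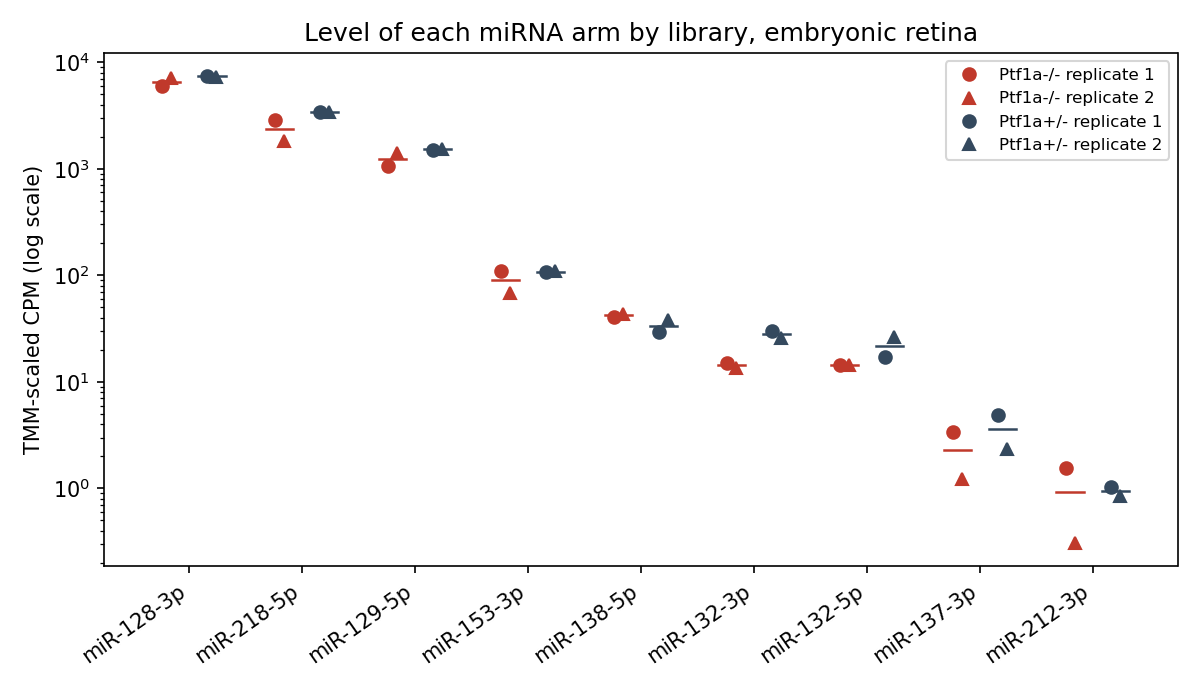
TMM-scaled CPM (log scale) of the 9 arms in each library, with Ptf1a-/- in red to the left of Ptf1a+/- in dark blue; points are libraries and short lines are means of 2. Levels span from 0.308 CPM for miR-212-3p in Ptf1a-/- replicate 2 to 7373 CPM for miR-128-3p in Ptf1a+/- replicate 1, and the Ptf1a-/- points of miR-132-3p lie below those of Ptf1a+/-.

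Levels formed 3 tiers that were the same in both genotypes. miR-128-3p, miR-218-5p and miR-129-5p were at 1058 CPM or more in every library, in that order, with no overlap between neighbours within a genotype. miR-153-3p, miR-138-5p, miR-132-3p and miR-132-5p lay between 13.5 and 111 CPM, and miR-137-3p and miR-212-3p below 5 CPM. In Ptf1a+/- libraries miR-138-5p and miR-132-3p overlapped, and so did miR-132-3p and miR-132-5p. In Ptf1a-/- libraries miR-138-5p lay above both miR-132 arms, which overlapped each other. miR-137-3p and miR-212-3p overlapped in Ptf1a-/- and not in Ptf1a+/-. Ligation and size selection favour some sequences, so levels of different miRNAs are compared less securely than levels of 1 miRNA between libraries.

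The comparison of the genotypes asked which miRNAs differ when Ptf1a function is lost. Of the 8 tested arms, 1 fell in Ptf1a-/- (miR-132-3p), 7 did not pass and 0 rose (edgeR quasi-likelihood test, Benjamini-Hochberg adjusted p under 0.05 over 584 miRNAs). Over all tested miRNAs 3.6% were called lower and 6.16% higher, and the single call among 8 arms is read against these shares. At an unadjusted p under 0.05, 2 of the 8 were lower and 0 higher. Of all 584 tested miRNAs, 148 were under that p in either direction. The 2 of 8 are near that share and are not read as a result about the set. DESeq2 and limma also called 0 of the 8 higher. The lower call on miR-132-3p was made by limma on log2 CPM (adjusted p = 0.0446), and not by DESeq2 (0.101) or by limma on the deposited CPM (0.0581 and 0.0602 at pseudocounts 1 and 0.1). Fitted log2 fold changes ranged from -0.96 to 0.32 with a median of -0.44, against a median of 0.00 over all 584, and 7 of 8 were below 0. For 5 of the 8 both Ptf1a-/- libraries lay below both Ptf1a+/- libraries, as they did for 31.5% of all tested miRNAs, and for 1 of the 8 both lay above (26.7% of all). The counts over all miRNAs, 36 higher and 21 lower (63.2% of calls higher), move with the scaling: with library size alone 25% of calls were higher, and on the deposited CPM 3.57%.

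**Figure D2:**
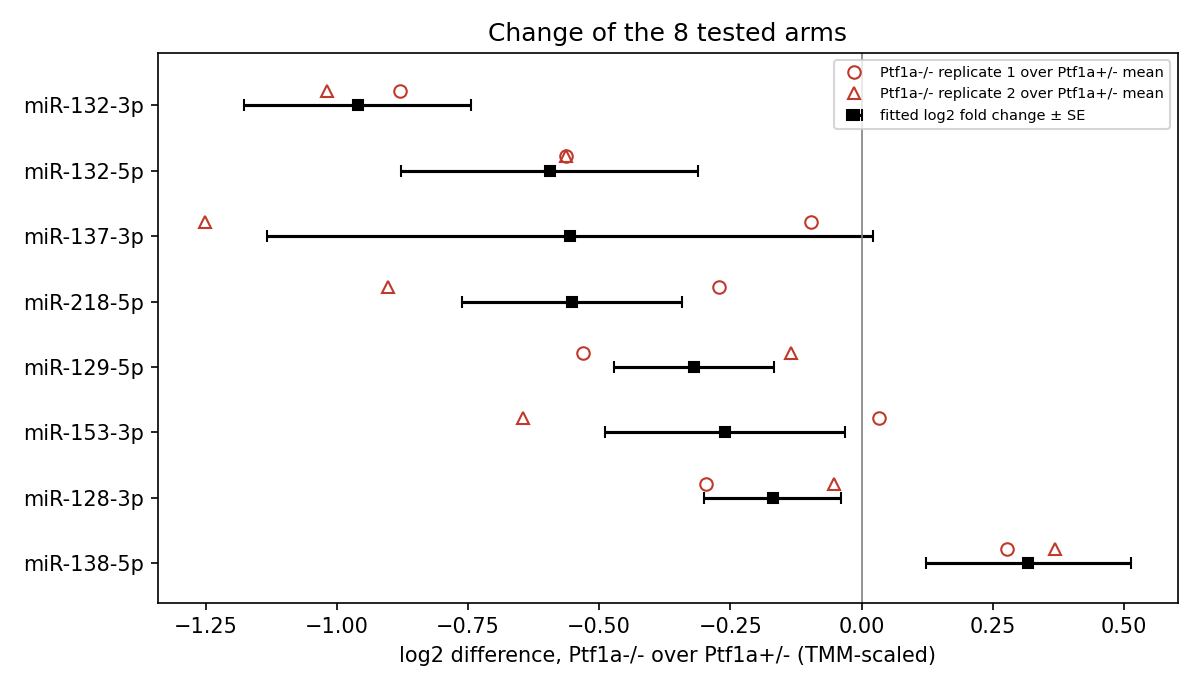
Log2 differences of the 8 tested arms, Ptf1a-/- over Ptf1a+/-; black squares are fitted values with SE, red circles and triangles are Ptf1a-/- replicates 1 and 2 over the Ptf1a+/- mean (0.5 CPM added to both). The 2 replicates lie close together for miR-132-3p and far apart for miR-218-5p, miR-153-3p and miR-137-3p.

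**Figure D3:**
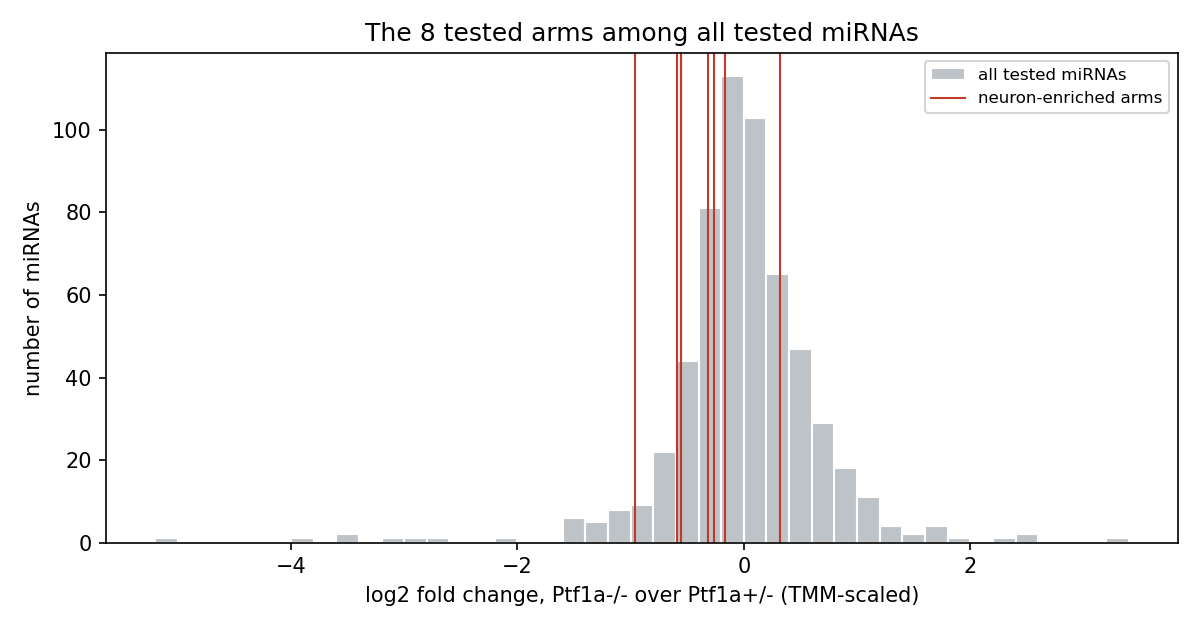
Number of miRNAs (y axis) by fitted log2 fold change in bins (x axis) for all 584 tested miRNAs in grey, with the 8 neuron-enriched arms as red lines. Of the 8 lines, 7 stand below 0, and they run from -0.96 (miR-132-3p) to 0.32 (miR-138-5p).

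miR-132-3p, the better known arm of the CREB-responsive precursor, had 58 and 44 counts in Ptf1a-/- and 116 and 122 counts in Ptf1a+/-. Scaled, it stood at 15.0 and 13.5 CPM in Ptf1a-/- and at 30.0 and 26.0 CPM in Ptf1a+/-, and the genotypes did not overlap. The log2 fold change was -0.96 ± 0.22 (SE derived from the fit, 95% interval -1.49 to -0.43), with an edgeR adjusted p of 0.0472. The summed counts gave a ratio of 0.516 with an exact 95% counting interval of 0.405 to 0.653. The fold change stayed between -1.30 and -0.85 under 13 alternative settings. Among those that kept the 4 libraries separate, only limma on log2 CPM made the call (adjusted p = 0.0446). The highest adjusted p among them was 0.103, in edgeR with a replicate term. Leaving out Ptf1a-/- replicate 1 or 2 gave a fold change of -1.03 or -0.87, with the spread then taken from the Ptf1a+/- pair alone. The call was lost without either Ptf1a+/- library (adjusted p = 0.481 without replicate 1, 0.391 without replicate 2), and with that pair summed into 1 library the adjusted p was 0.377.

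miR-132-5p, cut from the same hairpin, had 56 and 47 counts in Ptf1a-/- and 66 and 123 in Ptf1a+/-. That is 14.5 and 14.5 CPM in Ptf1a-/- and 17.0 and 26.2 CPM in Ptf1a+/-, again without overlap, but here the Ptf1a+/- pair was the wider one. Its log2 fold change of -0.59 ± 0.28 did not pass (edgeR adjusted p = 0.259). miR-212-3p, with the seed of miR-132-3p, had 6 and 1 counts in Ptf1a-/- and 4 and 4 in Ptf1a+/- and was not tested. Its summed counts of 7 and 8 gave a ratio of 1.05 (counting interval 0.325 to 3.32), so a change of the size seen for miR-132-3p was not detectable at this depth.

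The partner arm miR-212-5p was far more abundant than miR-212-3p, and made up 94.9 and 99.0% of miR-212 counts in Ptf1a-/- and 96.3 and 97.0% in Ptf1a+/-. It had 111 and 97 counts in Ptf1a-/- and 105 and 130 in Ptf1a+/-, or 28.7 and 29.9 CPM against 27.1 and 27.7 CPM. Its log2 fold change was 0.09 ± 0.18 (edgeR adjusted p = 0.797), and it went below 0 with library size alone (-0.090) and on the deposited CPM (-0.24). The hairpins are printed because the 2 neighbouring precursors gave such different arms; the mature arms annotated by RefSeq are in capitals.
Mir132: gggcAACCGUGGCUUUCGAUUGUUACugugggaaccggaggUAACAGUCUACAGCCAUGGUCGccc
Mir212: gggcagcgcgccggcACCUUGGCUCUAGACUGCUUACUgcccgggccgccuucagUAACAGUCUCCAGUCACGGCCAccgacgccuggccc
Within a library no scaling is needed. miR-132-3p made up 34.3% (27.2 to 42.0, exact 95% interval) and 31.2% (23.7 to 39.5) of the counts of miR-132-3p and miR-212-5p together in Ptf1a-/-. In Ptf1a+/- it made up 52.5% (45.7 to 59.2) and 48.4% (42.1 to 54.8). Both Ptf1a-/- shares lay below both Ptf1a+/- shares, although with 2 libraries against 2 the smallest p of an exact permutation test is 0.333 (two-sided). For miR-132-5p the same share was 33.5 and 32.6% in Ptf1a-/- and 38.6 and 48.6% in Ptf1a+/-.

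Both arms of miR-132 were recovered in near-equal numbers. miR-132-3p made up 50.9% (41.3 to 60.4) and 48.4% (37.7 to 59.1) of miR-132 counts in Ptf1a-/-, and 63.7% (56.3 to 70.7) and 49.8% (43.4 to 56.2) in Ptf1a+/-. The highest share was that of Ptf1a+/- replicate 1, and the other 3 libraries were within 3 percentage points of each other. Neither arm led with its RefSeq sequence. In all 4 libraries the most frequent miR-132-3p sequence was tAACAGTCtacagccatggtcgt, 1 base longer at the 3′ end and with the same seed. The added T does not match the base that follows the arm in the printed Mir132 hairpin, which is c. The most frequent miR-132-5p sequence was aCCGTGGCtttcgattgttact in all 4 libraries. It begins 1 base later than the RefSeq arm, so its seed is CCGUGGC in place of ACCGUGG (the capitals of the printed reads mark bases 2 to 8, with T for U).

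**Figure D4:**
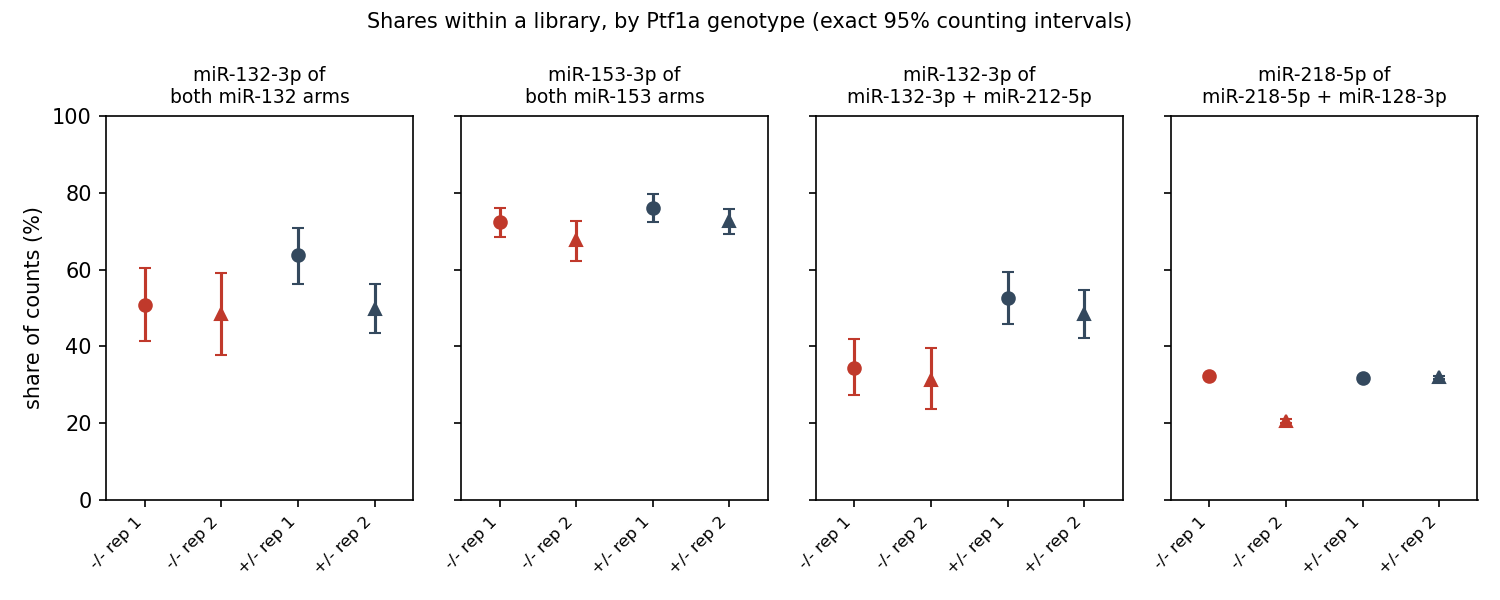
Share of counts (%) within each library for 4 pairs of arms, with exact 95% counting intervals; Ptf1a-/- libraries are red and on the left of each panel, Ptf1a+/- libraries dark blue. The share of miR-132-3p beside miR-212-5p is 31.2 to 34.3% in Ptf1a-/- and 48.4 to 52.5% in Ptf1a+/-, and the share of miR-218-5p beside miR-128-3p is 20.6% in Ptf1a-/- replicate 2 and between 31.8 and 32.3% in the other libraries.

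miR-218-5p, the Slit-hosted miRNA, had 11043 and 5973 counts in Ptf1a-/- and 13298 and 16185 in Ptf1a+/-. These were 2851 and 1839 CPM in Ptf1a-/- and 3435 and 3443 CPM in Ptf1a+/-, with the low value in Ptf1a-/- replicate 2. The log2 fold change of -0.55 ± 0.21 did not pass (edgeR unadjusted p = 0.0394, adjusted p = 0.174). It was -0.90 without Ptf1a-/- replicate 1 and -0.25 without Ptf1a-/- replicate 2. Set against miR-128-3p in the same library, miR-218-5p made up 32.3 and 20.6% of the 2 in Ptf1a-/- and 31.8 and 32.0% in Ptf1a+/-. By this ratio Ptf1a-/- replicate 1 did not lie below the Ptf1a+/- libraries. In that library miR-128-3p was itself lower, at 5983 CPM against 7373 and 7331 CPM in Ptf1a+/-. The ratio therefore does not show whether miR-218-5p was unchanged there.

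miR-128-3p, the most abundant member and 18th to 23rd of all listed miRNAs, had 23177 and 23028 counts in Ptf1a-/- and 28544 and 34458 in Ptf1a+/-. It stood at 5983 and 7091 CPM in Ptf1a-/- and 7373 and 7331 CPM in Ptf1a+/-. Both Ptf1a-/- libraries were lower, replicate 2 only slightly, and the log2 fold change was -0.17 ± 0.13 (edgeR adjusted p = 0.479, 95% interval -0.49 to 0.15). miR-129-5p had 4097 and 4520 counts in Ptf1a-/- and 5845 and 7269 in Ptf1a+/-, or 1058 and 1392 CPM against 1510 and 1546 CPM. Here the lower Ptf1a-/- library was replicate 1, and the log2 fold change of -0.32 ± 0.15 did not pass (edgeR adjusted p = 0.259). For both, the larger difference from Ptf1a+/- was thus in replicate 1, whereas for miR-218-5p and miR-153-3p it was in replicate 2.

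miR-153-3p, which acts on vesicle release genes, had 429 and 224 counts in Ptf1a-/- and 414 and 514 in Ptf1a+/-. At 111 and 69.0 CPM in Ptf1a-/- and 107 and 109 CPM in Ptf1a+/- the genotypes overlapped, since only Ptf1a-/- replicate 2 was low. The log2 fold change was -0.26 ± 0.23 (edgeR adjusted p = 0.530), and it was 0.052 without Ptf1a-/- replicate 2. Its partner miR-153-5p stood at 42.3 and 32.9 CPM in Ptf1a-/- and 33.6 and 41.3 CPM in Ptf1a+/-, with a log2 fold change of 0.01 ± 0.21 (adjusted p = 0.986; -0.16 with library size alone and -0.33 on the deposited CPM). The 3p arm made up 72.3 and 67.7% of miR-153 counts in Ptf1a-/- and 76.1 and 72.6% in Ptf1a+/-, with overlapping counting intervals. The leading miR-153-5p sequence, tCATTTTTgtgacgttgcagct, also began 1 base later than its RefSeq arm, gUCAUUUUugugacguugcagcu, in all 4 libraries.

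miR-138-5p, the spine miRNA, was the only tested member with a fitted value above 0. It had 159 and 142 counts in Ptf1a-/- and 114 and 179 in Ptf1a+/-, or 41.0 and 43.7 CPM against 29.4 and 38.1 CPM. Its Ptf1a-/- values were both above its Ptf1a+/- values, but the log2 fold change of 0.32 ± 0.20 did not pass (edgeR adjusted p = 0.384), and on the deposited CPM it was -0.01. Its leading sequence, aGCTGGTGttgtgaatcaggc, ended 2 bases before the RefSeq arm in all 4 libraries. miR-137-3p had 13 and 4 counts in Ptf1a-/- and 19 and 11 in Ptf1a+/-. The genotypes overlapped at 3.36 and 1.23 CPM in Ptf1a-/- and 4.91 and 2.34 CPM in Ptf1a+/- (log2 fold change -0.56 ± 0.58, edgeR adjusted p = 0.607). Its counting interval, 0.353 to 1.28 as a ratio, spans values on both sides of 1, so at this depth no direction was detectable.

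A list of 13 further arms held the partner arms of these precursors and both arms of miR-129b, whose precursor lies on the strand opposite Mir129-2. Of the 13, 11 were listed and 3 tested; none of the 3 passed (edgeR adjusted p from 0.793 to 0.986; 0 at an unadjusted p under 0.05, with a median log2 fold change of 0.01). For miR-128, miR-129 and miR-218 the member arm made up over 99% of the counts in every library. The arm miR-128-1-5p, which belongs to Mir128-1 alone, had 13 and 6 counts in Ptf1a-/- and 9 and 18 in Ptf1a+/-. miR-128-2-5p was listed at 0 in all 4 libraries, which allows up to 3 counts in each. A most frequent sequence was still deposited for it in Ptf1a-/- replicate 1, with 18 nt and 5 bases missing at the 5′ end. The deposited values thus differ on whether this arm was read there.

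A second list held 12 further arms enriched in the nervous system, from miR-7, miR-9, miR-124, miR-135a, miR-219a, miR-383, miR-384, miR-488 and miR-551b, and all 12 were tested. Of these, 1 rose (miR-7b-5p), 0 fell and 11 did not pass, with a median log2 fold change of 0.03. The single call is near the share of all tested miRNAs called higher (6.16%; 3.6% lower) and is not read as a result about the list. For 4 of the 12 the Ptf1a-/- pair was above the Ptf1a+/- pair without overlap (26.7% of all), and for 1 it was below (31.5% of all). miR-7b-5p, which is abundant in neurosecretory cells, stood at 1269 and 1547 CPM in Ptf1a-/- and 884 and 835 CPM in Ptf1a+/- (log2 fold change 0.71 ± 0.13, edgeR adjusted p = 0.0293). The fold change of miR-7b-5p stayed between 0.36 and 0.85 under 13 alternative settings. With the 4 libraries kept separate it was also called with DESeq2 size factors, DESeq2's Wald test and limma on log2 CPM. Leaving out Ptf1a-/- replicate 1 or 2 gave 0.85 or 0.58, with the spread then taken from the Ptf1a+/- pair alone. The call on miR-7b-5p was lost without either Ptf1a+/- library. The other losses came with library size alone (0.0810), no filter (0.0714), the deposited CPM (0.256 and 0.262 at pseudocounts 1 and 0.1), a replicate term (0.1001) and the summed Ptf1a+/- pair (0.383), all as adjusted p. miR-7a-5p stood at 9364 and 11288 CPM in Ptf1a-/- and 7437 and 6847 CPM in Ptf1a+/- and did not pass (0.53 ± 0.14, edgeR adjusted p = 0.0781). miR-124-3p, the pan-neuronal miRNA, stood at 1020 and 833 CPM in Ptf1a-/- and 1021 and 1034 CPM in Ptf1a+/- (-0.15 ± 0.13, edgeR adjusted p = 0.530), and miR-9-5p at 218605 and 284808 CPM against 193585 and 193725 CPM (0.38 ± 0.20, edgeR adjusted p = 0.300).

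The miRNAs whose pattern over the 4 libraries was most like that of miR-132-3p were sought by root-mean-square distance of centred log2 CPM among the other tested miRNAs. They were miR-1247-5p (distance 0.066), miR-449c-5p (0.068) and miR-199a-5p (0.109). Each had both Ptf1a-/- libraries below both Ptf1a+/- libraries, as did 31.5% of all tested miRNAs. That order follows from how they were chosen and is not a separate result. miR-1247-5p stood at 34.6 and 28.3 CPM in Ptf1a-/- and 62.0 and 58.3 CPM in Ptf1a+/-. miR-199a-5p, a miRNA of mesenchymal cells, stood at 11.9 and 13.2 CPM in Ptf1a-/- and 27.9 and 24.0 CPM in Ptf1a+/-. miR-449c-5p rested on few counts, at 1.55 and 1.23 CPM in Ptf1a-/- and 3.36 and 3.19 CPM in Ptf1a+/-. With 4 libraries such likeness is a description only.

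Markers of other cells that a dissected retina could hold were measured beside these values. Of 4 vessel and mural cell miRNAs, 3 were tested and 0 called, and their summed level was 352 and 587 CPM in Ptf1a-/- and 593 and 614 CPM in Ptf1a+/-. Most of that sum was miR-126a-3p (log2 fold change -0.35), so it says little about the others. Of these, miR-143-3p stood at 13.2 and 20.6 CPM in Ptf1a-/- and 33.8 and 34.3 CPM in Ptf1a+/-. Its log2 fold change of -1.03 ± 0.25 was near that of miR-132-3p but did not pass. miR-126a-5p went the other way (0.31 ± 0.28), with overlapping genotypes. Of 3 pigment epithelium miRNAs 1 was called lower (sums 3204 and 3566 CPM in Ptf1a-/-, 3690 and 3729 CPM in Ptf1a+/-). Of 4 lens and surface epithelium miRNAs 3 were listed and 1 was called lower (227 and 301 CPM against 305 and 292 CPM), with miR-205-5p not among the listed miRNAs. Over all tested miRNAs 3.6% were called lower, and a single call among so few markers is not read as a result about a cell type. Blood cell miRNAs summed to 63.8 and 96.1 CPM in Ptf1a-/- and 73.4 and 70.4 CPM in Ptf1a+/-, and striated muscle miRNAs to 65.1 and 70.2 CPM against 48.6 and 51.3 CPM, with 0 of either called. At 13.5 to 30.0 CPM, miR-132-3p lay below these sums in every library. The part of such cells in the differences described here was not tested.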

How the data were processed

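The sample titles gave genotype and replicate number. Per the labels' protocols, small RNA was gel-cut at 18 to 30 nt from 1 µg of TRIzol-extracted total RNA, and cDNA at 60 to 80 nt. Per the submitters' processing notes, demultiplexing used bcl2fastq 2.20.0.422, while aligner, counter and build were not given in the sources used here. Raw values as deposited by the authors are estimated counts (5.73 to 7.84% of values not whole, none among the members), rounded here before testing. The deposited CPM divide the counts by a larger total per library that is not explained; 22.7 and 27.9% of it in Ptf1a-/- and 17.0 and 16.3% in Ptf1a+/- lay outside the listed counts. The third deposited table gives the most frequent sequence per miRNA, written against miRBase22, per the file headers.

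Ptf1a-/- was tested against Ptf1a+/- with edgeR 4.0.16 (R 4.3.3; quasi-likelihood, TMM scaling, genotype as the only term) over miRNAs with at least 10 counts in 2 or more libraries, and p-values were adjusted by Benjamini-Hochberg over all of them. The fit was tested on simulated data with an equal spread in both genotypes. These libraries do not have that, so the simulation does not measure the error rate of the calls here. Alternatives used limma 3.58.1, DESeq2 1.42.0, other scalings, no filter, left-out libraries, a replicate term and a summed Ptf1a+/- pair. Intervals on shares are Clopper-Pearson (SciPy) and, like the limits at 3 counts, cover counting error only, since no molecular identifiers are described. Members and lists were chosen with earlier results of these data known. Besides the cell type markers, the named miRNAs are the members, their partner arms, the second neural list, miRNAs with a member's seed, and the 3 nearest in pattern to the member with the smallest p. Sequences come from RefSeq (GRCm38.p6).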

Additional observations from a re-analysis of the deposited data

How the results depend on the processing

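Of 104 recomputed fold changes of the 8 tested members (13 alternatives each), 81 kept both their direction and their side of the threshold, 10 lost a call, 9 gained one and 4 changed sign. The 10 lost calls are all of miR-132-3p, whose direction held throughout. The count of members called lower was 0, against 1, with DESeq2 size factors, library size alone, no filter on low counts, DESeq2's Wald test, the deposited CPM (pseudocount 1 or 0.1), the replicate block and the summed Ptf1a+/- pair. Of all tested miRNAs (6.16% higher and 3.6% lower as reported), 0.685% were called higher and 2.05% lower with library size alone, 0.956 and 0.717% without the filter, 0.856 and 1.2% with the replicate block, and 0 and 0.171% with the pair summed. On the deposited CPM 0.171% were higher at either pseudocount. Leaving out each library in turn gave 0 to 24.3% higher, 0.171 to 22.6% lower and 0 to 6 members lower, with the low ends without a Ptf1a+/- library and the high ends without a Ptf1a-/- library. Without Ptf1a+/- replicate 1 or 2 no member was called, and without Ptf1a-/- replicate 1 or 2, where the lone Ptf1a-/- library is assumed to vary like the Ptf1a+/- pair, 6 and 5 members were called lower. The cause of the other changes was not tested. Replicate numbers are not stated to pair libraries (correlation of their deviations 0.05 across 584 miRNAs), and the block is given as an alternative only.

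All miRNAs shifted by a median of -0.18 (log2) with library size alone and -0.33 on the deposited CPM; the median of the members minus that of all miRNAs was -0.43 and -0.35 there and -0.43 with TMM. Changes of sign were those of miR-138-5p on the deposited CPM (-0.0071 and -0.0072 at pseudocounts 1 and 0.1), of miR-212-5p (-0.090 with library size alone, -0.24 and -0.25 on the deposited CPM) and of miR-153-5p (-0.16, -0.33 and -0.34). With libraries left out in turn, miR-137-3p ranged from -1.48 to 0.026, miR-153-3p from -0.65 to 0.052, miR-153-5p from -0.20 to 0.18 and miR-124-3p from -0.30 to 0.0083. Depth limits miR-137-3p and miR-212-3p, with at most 19 counts in a library.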

Other observations

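Several minor partner arms did not lead with 1 sequence. The most frequent miR-129-2-3p read differed among the 4 libraries (3 distinct sequences), with 10 and 5 counts in Ptf1a-/- and 9 and 8 in Ptf1a+/-. miR-138-2-3p likewise had 3 distinct leading sequences over 7 and 4 counts in Ptf1a-/- and 6 and 3 in Ptf1a+/-, and miR-137-5p had 4 over 1 and 1 counts and 2 and 1 counts. Among the members, miR-212-3p had 3 and miR-137-3p had 2 distinct leading sequences, and the other 7 had 1 each in all 4 libraries. At so few counts a leading sequence can rest on a single read, and these differences were not tested.

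miR-138-1-3p, which belongs to Mir138-1 alone, had 1 and 4 counts in Ptf1a-/- and 4 and 7 in Ptf1a+/-, beside the miR-138-2-3p counts above.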
